A study of Mus musculus with 4 samples.

Results

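The NEDD4 family of ubiquitin ligases and the Ndfip adaptors that bind them were followed as 9 genes: the ligase genes Itch, Wwp1, Wwp2, Nedd4, Nedd4l, Smurf1 and Smurf2, and the adaptor genes Ndfip1 and Ndfip2. They were chosen by name, out of 21937 genes in the count table, and all 9 were present. The question was whether RNA levels of family members differed when Itch or WWP2 was lost, as compensation through RNA level would require. Compensation through protein level or activity, or by members already present, was not examined, since the counts are of RNA. The cells were CD4+ T cells from the spleens of B6 mice aged 6 weeks, all stimulated with PMA and ionomycin, a phorbol ester and a calcium ionophore that bypass the T cell receptor. The libraries were 1 labelled DKO for Itch and WWP2 (double knockout, called the DKO-labelled library below), 1 of the Itch knockout (Itchf/f Cd4cre), 1 of the WWP2 knockout (WWP2-/-) and 1 of wild type. In the Itch knockout the floxed gene is removed by a recombinase under Cd4 control, which acts in developing T cells, whereas the WWP2 label gives a knockout without a recombinase. The alleles behind the double knockout label, the number of mice per library and the time of stimulation were not stated in the labels.

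NEDD4 family ligases share a layout of WW domains, which bind short proline-rich PPxY motifs, followed by a catalytic HECT domain that passes ubiquitin to the substrate. Many substrates are reached through adaptors: Ndfip1 and Ndfip2 are membrane proteins of endosomes and the Golgi that carry PPxY motifs, recruit the ligases and release them from an inactive state. In mice, loss of Itch or of Ndfip1 leads to inflammation dominated by type 2 helper T cells, and the transcription factor JunB is a well known Itch substrate in these cells.

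Depth was alike in the 4 libraries, with 17130747 to 17990392 counted reads. With 1 library per genotype there was no spread between replicates, so no p-value was computed, and each interval below is a 95% interval of counting error only. Levels are CPM (read counts scaled to library size) with TMM factors, which correct for differences in RNA composition. A gene was called higher or lower when its log2 ratio (prior count 2) reached 1 (higher) or -1 (lower), the 4 libraries averaged at least 2 CPM, and the interval of its fold excluded 1; all 9 members passed the minimum level, as did 9926 genes in all. All 9 T cell markers were read in each library. Cd4 stood at 508, 246, 169 and 235 CPM in the DKO-labelled library, Itch KO, WWP2 KO and wild type. The summed T cell markers gave 3053, 2650, 2763 and 2824 CPM in the same order. In the DKO-labelled library Cd5 (295 against 697 CPM), Cd28 and Lat were below wild type and the other T cell markers above it. The summed B cell markers (5 genes) stood between 1.24 and 3.06 CPM and Pax5 was at 0 throughout; the erythroid sum stayed at or below 0.377 CPM, the NK cell sum lay between 0.807 and 5.08 CPM, and the CD8 sum between 6.53 and 15.9 CPM, highest in Itch KO.

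Among the ligases, the targeted gene Wwp2 had 1135 reads in the DKO-labelled library, 1332 in Itch KO and 4 in WWP2 KO, against 1363 in wild type. Its reads were thus nearly lost in WWP2 KO and plentiful in the DKO-labelled library, although that label names WWP2. A gene-level count cannot tell a swapped library from a differently made Wwp2 allele that still gives reads. The genotype of the DKO-labelled library is therefore in doubt, and its differences are given as those of the library. Itch had 2389, 1914, 1996 and 2083 reads in the same order. A whole-gene count includes exons outside a floxed segment, so the Itch reads check neither Itch label. The promoter of Wwp2, whose reads separated the WWP2 KO library from all others, is shown from RefSeq (GRCm38.p6, plus strand, chr8:107436120-107436419, from 250 bases before to 50 bases after the start); capitals mark the single match to the NFAT core.
Wwp2 promoter: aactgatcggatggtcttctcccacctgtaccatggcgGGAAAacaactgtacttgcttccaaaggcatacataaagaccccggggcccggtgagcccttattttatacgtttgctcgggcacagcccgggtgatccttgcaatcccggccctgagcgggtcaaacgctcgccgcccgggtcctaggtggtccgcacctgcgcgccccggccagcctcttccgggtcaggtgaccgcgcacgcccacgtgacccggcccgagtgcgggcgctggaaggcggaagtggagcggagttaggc

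Per kilobase of annotated exon, which allows genes to be compared within a library, the adaptor gene Ndfip1 was the most abundant member in each library, at 63.7 CPM per kilobase in the DKO-labelled library, 60.8 in Itch KO and 40.3 in WWP2 KO, against 46.0 in wild type. Itch was second throughout, at 13.2, 11.4, 12.0 and 12.4 CPM per kilobase. In wild type Smurf2 (9.82), Smurf1 (9.08) and Wwp2 (8.86) followed, and neighbours among these overlapped in their counting intervals. Wwp1, a close relative of Wwp2, stood at 4.99 and Ndfip2 at 4.61 CPM per kilobase in wild type, also overlapping. Nedd4l and Nedd4, the ligases best known for control of membrane channels and growth factor receptors, were lowest at 0.307 and 0.237, with overlapping intervals. With the longest transcript as the length in place of all exons, Wwp2 moved ahead of Smurf2 and Smurf1 in wild type and Ndfip2 passed Wwp1, while Ndfip1, Itch, Nedd4l and Nedd4 kept their places. Itch took 32.2% of the summed per-length level of the 7 ligases in the DKO-labelled library, 27.0% in Itch KO and 32.0% in WWP2 KO, against 27.1% in wild type; Nedd4 and Nedd4l together were a minor part.

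**Figure D1:**
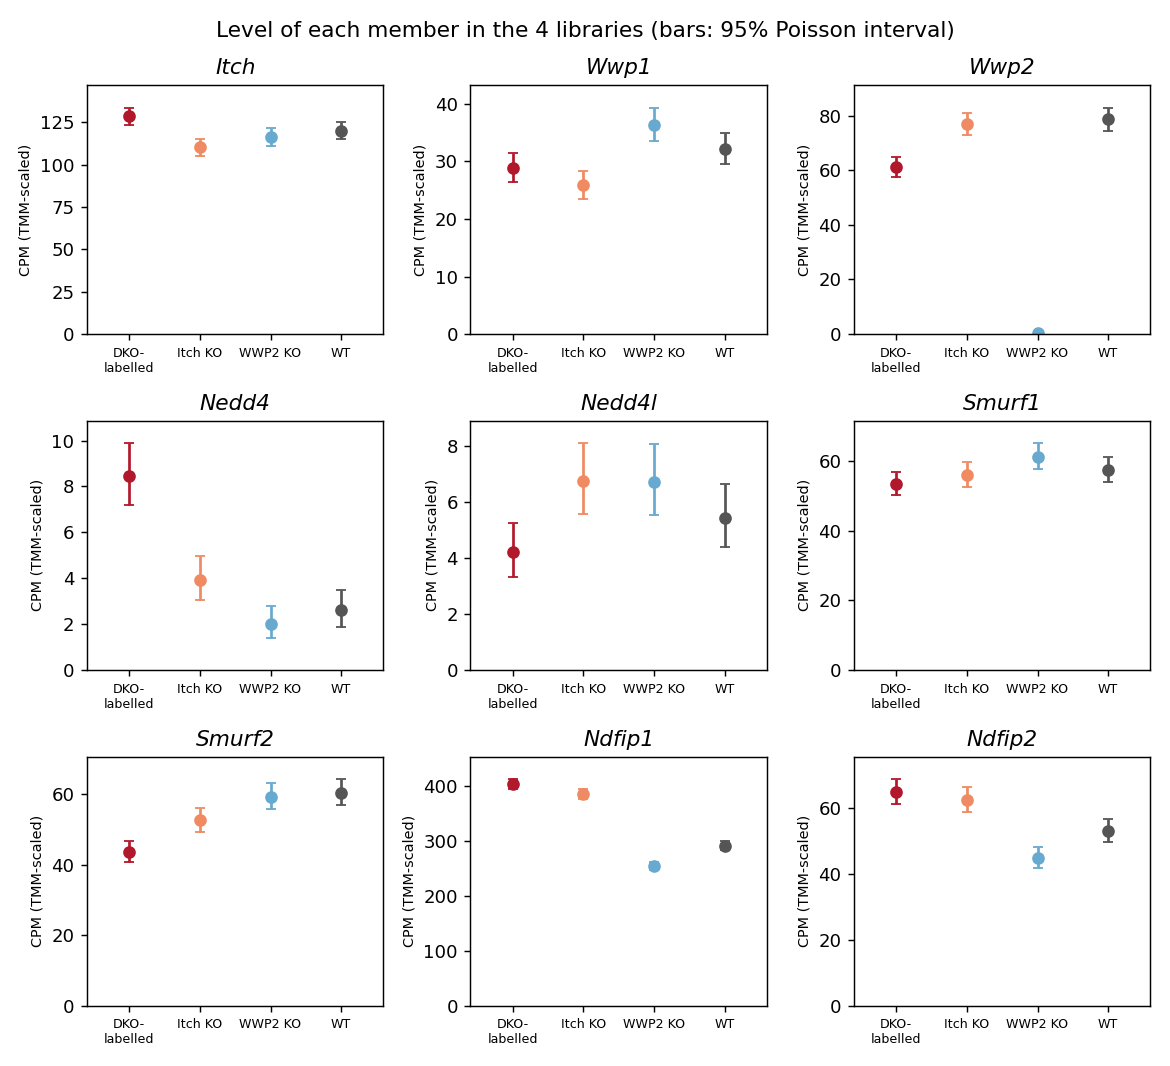
Level of the 9 members in the 4 libraries, 1 panel per gene, as TMM-scaled CPM with bars for the 95% Poisson interval of the count. Wwp2 is near 0 in WWP2 KO (0.233 CPM) and at 61.1 CPM in the DKO-labelled library; Nedd4 is highest in the DKO-labelled library, at 8.45 CPM.

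Loss of WWP2 was visible in the reads themselves. In WWP2 KO, Wwp2 was 337-fold lower (131 to 1238) relative to wild type and was the only member of 9 called; 0.161% of all tested genes were called lower and 0.282% higher. The remaining ligases lay within 2-fold of wild type. Wwp1 had 36.4 CPM in WWP2 KO against 32.2 CPM in wild type, 1.13 times the wild-type level (1.01 to 1.27). Smurf1, a ligase known for regulation of TGF-beta and BMP receptors, had 61.2 and 57.5 CPM, a fold of 1.07 (0.976 to 1.16), and Smurf2 had 59.3 and 60.5 CPM, a fold of 0.980 (0.899 to 1.07). Itch had 116 CPM in WWP2 KO and 120 CPM in wild type, a fold of 0.969 (0.911 to 1.03). The 2 low members could not be placed closely: Nedd4l had 115 reads in WWP2 KO and 94 in wild type, a fold of 1.24 (0.934 to 1.64), and Nedd4 had 34 and 45, a fold of 0.764 (0.475 to 1.22). Log2 ratios as far from 0 were found for 12.8% of tested genes in the case of Nedd4l and 8.14% in that of Nedd4. Both adaptors were below wild type, Ndfip1 at 0.874 times (0.840 to 0.911) and Ndfip2 at 0.844 times (0.766 to 0.929), neither near the 2-fold rule. In all, the counting interval excluded 1 for 4 of 9 members, against 32.1% of the tested genes.

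The size of the loss can be set against the rest of the family on the per-length scale. WWP2 KO lacked 8.84 CPM per kilobase of Wwp2 relative to wild type. The 6 other ligases together stood at 37.5 CPM per kilobase in WWP2 KO and 36.8 in wild type, a ratio of 1.02 (0.978 to 1.06). Their joint difference of 0.686 CPM per kilobase came to 7.76% of the Wwp2 level lost (-9.43% to 24.9%). With total counts as the scaling that share was 15.2%, and with the longest transcript as length 2.61%. By gene the differences were 0.653 for Wwp1, 0.590 for Smurf1 and 0.073 for Nedd4l, and -0.383 for Itch, -0.192 for Smurf2 and -0.056 for Nedd4, in CPM per kilobase. The sum over all 7 ligases was 37.5 CPM per kilobase in WWP2 KO and 45.7 in wild type, or 0.822 times (0.790 to 0.854).

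**Figure D2:**
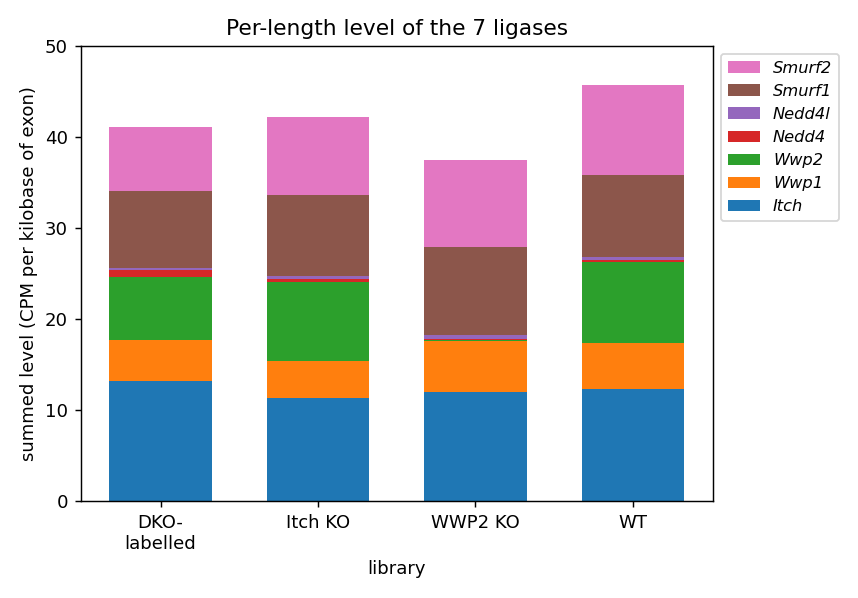
Summed per-length level of the 7 ligases in each library, in CPM per kilobase of exon, with 1 colour per gene. The WWP2 KO bar, at 37.5, lacks the Wwp2 segment, and the other 6 segments sum to nearly the same as in wild type (37.5 and 36.8).

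In Itch KO, 0 of 9 members were called, where 4.89% of all tested genes were called higher than wild type and 0.846% lower. The counting interval excluded 1 for 6 members, where 54.2% of the tested genes did so. Wwp2 had 76.8 CPM in Itch KO and 78.6 CPM in wild type, a fold of 0.977 (0.905 to 1.05). Smurf1 had 56.0 and 57.5 CPM, a fold of 0.974 (0.890 to 1.06). These folds lie close to 1 with narrow intervals. Wwp1 had 25.9 CPM in Itch KO against 32.2 CPM in wild type, 0.804 times (0.709 to 0.912), and Smurf2 had 52.6 and 60.5 CPM, 0.870 times (0.795 to 0.952). The Itch count itself was 0.919 times the wild-type level (0.863 to 0.978). Nedd4, on 68 and 45 reads, was at 1.51 times (1.02 to 2.25) and Nedd4l, on 117 and 94, at 1.24 times (0.940 to 1.65). The 6 ligases other than Wwp2 summed to 33.5 CPM per kilobase in Itch KO and 36.8 in wild type, 0.910 times (0.873 to 0.949). All 7 ligases summed to 42.2 and 45.7 CPM per kilobase, 0.923 times (0.890 to 0.958). Both sums include the targeted gene Itch, so neither gives the level of the remaining ligases alone. Without the DKO-labelled library in the scaling and the level filter, again 0 members were called in Itch KO and only Wwp2, lower, in WWP2 KO.

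**Figure D3:**
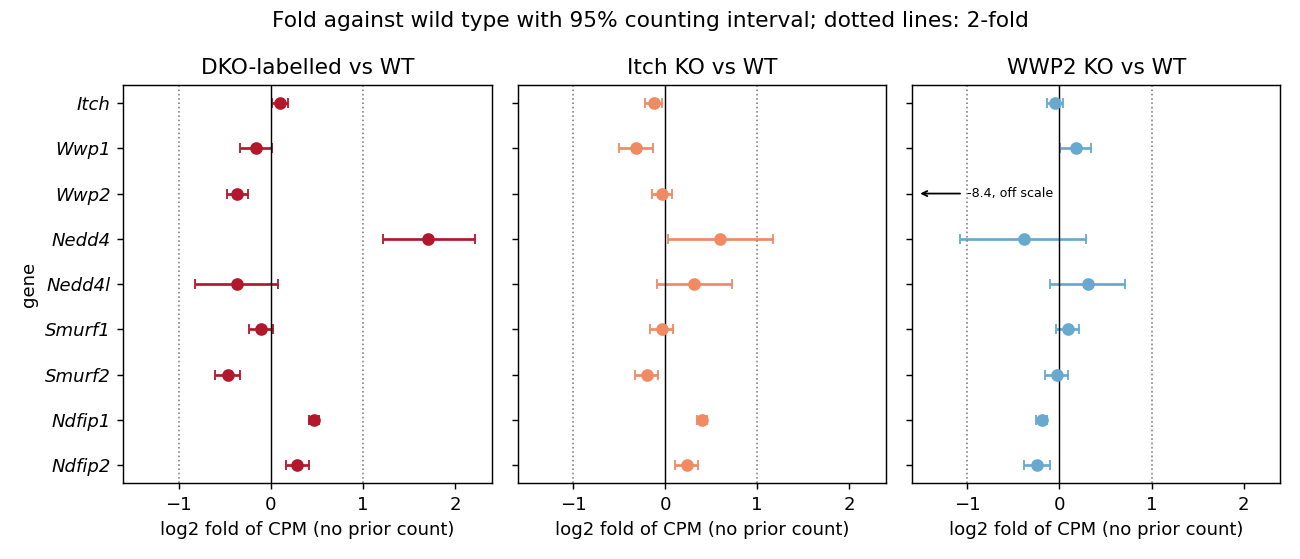
Fold of each member against wild type on the log2 scale, without a prior count, in the DKO-labelled library, Itch KO and WWP2 KO, with bars for the 95% counting interval and dotted lines at 2-fold. Nedd4 in the DKO-labelled library (3.25-fold) lies beyond the upper line, and Wwp2 in WWP2 KO is off the scale.

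In the DKO-labelled library, Nedd4 was the only member called against wild type: 1 of 9 higher, where 12.3% of the tested genes were called higher, and 0 of 9 lower, where 6.34% were, so the members' share was close to that of all genes. Nedd4 had 157 reads in that library, 68 in Itch KO and 34 in WWP2 KO, against 45 in wild type. The DKO-labelled library was thus above all others with no overlap of counting intervals. The share of all tested genes with such a pattern was not computed. For 77.9% of them the interval of the fold between that library and wild type excluded 1. Nedd4 in that library was 3.25-fold higher than wild type (2.32 to 4.64), 2.15-fold higher than Itch KO (1.61 to 2.91) and 4.26-fold higher than WWP2 KO (2.92 to 6.37). These folds share the same library. A ratio to wild type at least as high was found for 6.76% of the tested genes. The gene remained low in absolute terms, at 1.87% of the summed per-length ligase level in the DKO-labelled library and 0.518% in wild type. Nedd4l, its closest relative, did not follow, with 78, 117, 115 and 94 reads in the DKO-labelled library, Itch KO, WWP2 KO and wild type, and a fold of 0.774 to wild type (0.566 to 1.06).

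Markers of other cell types also differed in the DKO-labelled library. All 5 myeloid markers were read there (3 in Itch KO and 3 in WWP2 KO, against 4 in wild type), and their sum was 20.2 CPM in that library, 6.98 in Itch KO and 3.85 in WWP2 KO, against 4.09 in wild type, of which Cd68 alone gave 19.0 CPM in the DKO-labelled library and at most 5.94 in the others. The other 4 had few reads: Csf1r 2, 0, 0 and 0 in the same order, Lyz2 5, 5, 0 and 1, Emr1 3, 0, 1 and 2, and Itgam 12, 13, 9 and 16. The dendritic cell sum, mostly Xcr1, was 19.4 CPM in the DKO-labelled library, 8.13 in Itch KO and 2.92 in WWP2 KO, against 3.92 in wild type. Of the rest of the dendritic cell list, Itgax had 38, 27, 2 and 12 reads in the same order. Flt3 had 0, 1, 0 and 2 and did not follow the sum. The sum of the mast cell and basophil list, nearly all Kit, ran opposite to the myeloid and dendritic cell sums, at 5.27, 10.9, 28.9 and 24.9 CPM in the same order. Of the rest of that list, Mcpt8 did not follow the sum, with 12, 0, 2 and 0 reads. Cpa3 had 1, 1, 0 and 2 reads, and Fcer1a and Ms4a2 had 0 throughout. The part of these differences in the Nedd4 count was not tested, and in bulk RNA fewer cells of a type and less RNA per cell cannot be told apart.

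RefSeq annotates a pair of starts for Nedd4, and a count per gene does not say which was used. Both windows are shown because Nedd4 was the member called in the DKO-labelled library; they lie on the plus strand of GRCm38.p6 at chr9:72662081-72662380 (upstream) and chr9:72693048-72693347 (downstream), and capitals mark matches to AP-1 (TGANTCA), to the NFAT core (GGAAA) or to AGATAA, which Gata3 and its relatives bind, on either strand.
Nedd4 upstream start: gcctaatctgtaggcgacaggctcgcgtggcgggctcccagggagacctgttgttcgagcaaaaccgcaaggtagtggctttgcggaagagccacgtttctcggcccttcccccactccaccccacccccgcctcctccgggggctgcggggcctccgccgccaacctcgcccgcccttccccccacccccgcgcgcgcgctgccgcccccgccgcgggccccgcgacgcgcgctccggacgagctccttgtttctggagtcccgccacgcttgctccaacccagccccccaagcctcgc
Nedd4 downstream start: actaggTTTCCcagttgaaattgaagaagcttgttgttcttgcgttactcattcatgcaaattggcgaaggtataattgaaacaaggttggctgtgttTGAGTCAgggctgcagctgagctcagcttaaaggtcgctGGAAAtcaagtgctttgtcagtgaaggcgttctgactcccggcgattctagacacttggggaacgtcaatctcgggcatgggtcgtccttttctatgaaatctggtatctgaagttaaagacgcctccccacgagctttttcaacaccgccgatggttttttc
The upstream window had 35 CpG dinucleotides, a GC content of 73.0% and no match to the 3 motifs. The downstream window had 13 CpG dinucleotides, a GC content of 46.7%, 1 AP-1 match at position -152 from the start and 2 NFAT core matches, at -244 and -113. AP-1 and NFAT are the factor families that PMA and ionomycin engage. Of 32851 promoter windows of the same length, 7.81% held the AP-1 letters, 61.3% the NFAT core and 11.2% the letters AGATAA. Windows were examined for 5 of the 9 members. Besides Nedd4 and Wwp2 these were Smurf1 and Smurf2, with none of the 3 motifs, and Ndfip2, with 2 NFAT core matches. Windows of Itch, Wwp1, Nedd4l and Ndfip1 were not examined, which does not mean that RefSeq lacks starts for them. The motifs of Nedd4 were therefore not compared with those of Nedd4l. A match of letters is a description and not a binding site.

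The other members in the DKO-labelled library lay within 2-fold of wild type. Smurf2 had 43.7 CPM there and 60.5 CPM in wild type, 0.722 times (0.658 to 0.792), and Smurf1 had 53.5 and 57.5 CPM, 0.930 times (0.851 to 1.02). Wwp1 was at 0.898 times (0.796 to 1.01), Wwp2 at 0.777 times (0.717 to 0.841) and Itch at 1.07 times (1.01 to 1.14). The median log2 ratio of the 9 members was -0.10, against -0.03 over all tested genes, and their median distance from 0 was 0.36 against 0.43 over all tested genes. In the single knockouts the members' median distance was the larger one, at 0.23 against 0.18 in Itch KO and 0.19 against 0.11 in WWP2 KO. The counting interval excluded 1 for 6 of 9 members, where 77.9% of the tested genes did so. Against Itch KO, 1 of 9 members was called, Nedd4, higher (9.18% of tested genes were called higher), and against WWP2 KO 2 were, Nedd4 and Wwp2, both higher (11.6% were called higher). The Wwp2 call against WWP2 KO restates the near absence of its reads there. Nedd4l stood at 0.622 times its Itch KO level (0.461 to 0.836) and 0.626 times its WWP2 KO level (0.463 to 0.841) in the DKO-labelled library. Its direction was thus opposite to that of Nedd4.

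Ratios of reads between paralogs within a library do not depend on the scaling. Nedd4 had 2.01 reads per read of Nedd4l in the DKO-labelled library (1.52 to 2.68), 0.581 in Itch KO (0.425 to 0.790), 0.296 in WWP2 KO (0.195 to 0.437) and 0.479 in wild type (0.328 to 0.690). The interval of the DKO-labelled library overlapped none of the other 3. These ratios are not per length, so they compare libraries and not the levels of the paralogs. Smurf1 had 1.22 reads per read of Smurf2 in that library (1.11 to 1.34), 1.06 in Itch KO (0.971 to 1.17), 1.03 in WWP2 KO (0.946 to 1.13) and 0.950 in wild type (0.871 to 1.04). The intervals of the DKO-labelled library and wild type did not overlap. How often intervals of other gene pairs fail to overlap was not computed, for this pair or for Nedd4 and Nedd4l. Wwp1 had 0.473 reads per Wwp2 read in the DKO-labelled library (0.426 to 0.525), 0.337 in Itch KO (0.302 to 0.375) and 0.409 in wild type (0.370 to 0.452), and 156 (60.6 to 574) in WWP2 KO, where Wwp2 was nearly lost.

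**Figure D4:**
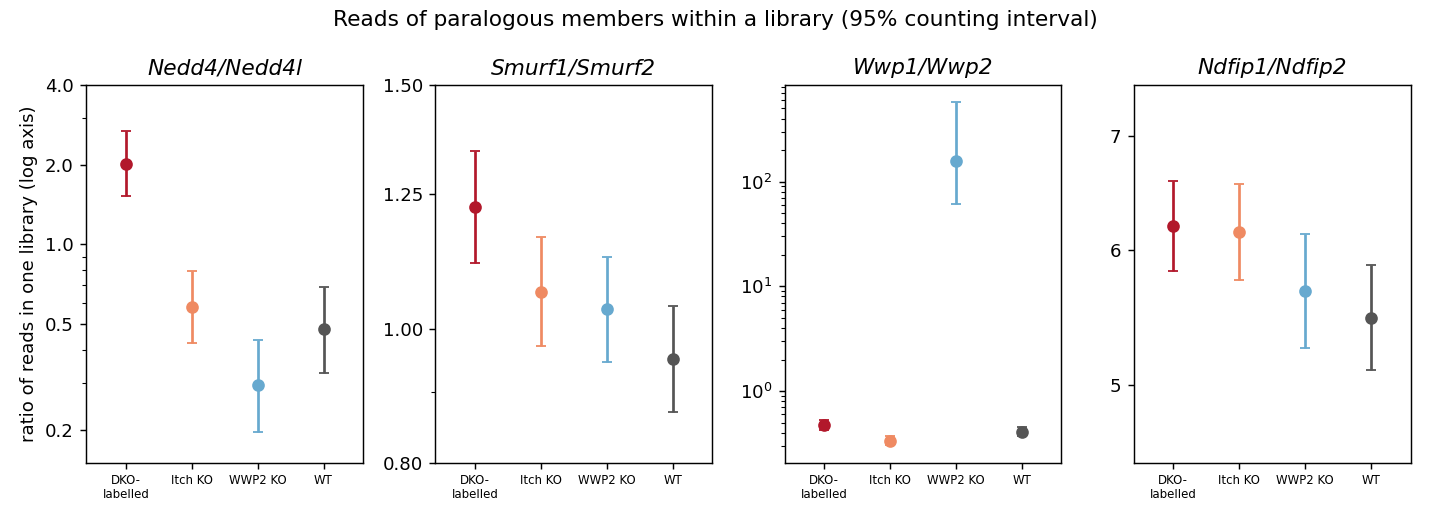
Reads of one paralog per read of the other within each library, on log axes with a range of their own, with bars for the 95% counting interval. The Nedd4 to Nedd4l read ratio is 2.01 in the DKO-labelled library, above its value in Itch KO, WWP2 KO and wild type (0.581, 0.296 and 0.479).

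The adaptor genes differed between libraries in the same order as each other. Ndfip1, whose loss in mice causes a type 2 inflammatory disease close to that of Itch loss, had 7491 reads in the DKO-labelled library, 6672 in Itch KO and 4369 in WWP2 KO, against 5053 in wild type. Ndfip2, its less studied relative, had 1209, 1086, 770 and 923 reads. Both were thus highest in the libraries with an Itch knockout label and lowest in WWP2 KO, although no difference between a knockout and wild type reached 2-fold. Ndfip1 was at 1.38 times the wild-type level in the DKO-labelled library (1.33 to 1.43) and 1.32 times in Itch KO (1.27 to 1.37); ratios at least as high were found for 24.2% and 12.8% of the tested genes. Ndfip2 was at 1.22 times (1.12 to 1.33) and 1.18 times (1.08 to 1.29), with 31.3% and 19.9% of genes at least as high. Between the DKO-labelled library and WWP2 KO, Ndfip1 differed by 1.58 times (1.52 to 1.64) and Ndfip2 by 1.45 times (1.32 to 1.59). Ndfip1 reads per Ndfip2 read were 6.20 (5.83 to 6.59), 6.14 (5.76 to 6.56), 5.67 (5.25 to 6.13) and 5.47 (5.10 to 5.88) in the DKO-labelled library, Itch KO, WWP2 KO and wild type, and all 4 intervals overlapped. The wild-type library is shared by these comparisons, and 1 library per genotype cannot separate a genotype from the library.

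Over the 4 libraries, the range from the lowest to the highest log2 level was narrower than the median gene's 0.58 for 5 of 9 members. Smurf1 (0.20) and Itch (0.22) were the steadiest, with 91.2% and 88.8% of tested genes ranging at least as widely. Smurf2 (0.47), Wwp1 (0.49) and Ndfip2 (0.53) were below the median as well. Ndfip1 (0.66) and Nedd4l (0.67) were slightly above it. Nedd4 spanned 2.03, a width reached by 6.88% of genes, and Wwp2 spanned 7.83 through its knockout.

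Genes around the family were examined by lists chosen with earlier results of these data known. Of the family members outside the 9 genes, Hecw1 had at most 1 read in a library and Hecw2 had 33, 36, 20 and 24 reads in the DKO-labelled library, Itch KO, WWP2 KO and wild type, both under the level minimum. Of 16 tested other HECT ligases, 0 were called in Itch KO and 0 in WWP2 KO against wild type. Of all tested genes, 4.89% were called higher and 0.846% lower in Itch KO, and 0.282% and 0.161% in WWP2 KO, so these counts are close to those shares. In the DKO-labelled library 2 were higher and 1 lower, or close to the 12.3% and 6.34% of all tested genes called. These were Herc6, 3.72-fold higher (2.88 to 4.86), Hectd3, 2.06-fold higher (1.83 to 2.33), and Hectd2, 3.04-fold lower. The list medians were -0.13, 0.09 and -0.10 in that order of libraries (Itch KO, WWP2 KO, DKO-labelled), against medians of -0.02, -0.01 and -0.03 over all tested genes.

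Of the other adaptors and regulators of the family, 5 of 15 tested genes were called higher and 1 lower in the DKO-labelled library, where 12.3% and 6.34% of all tested genes were, with a median log2 ratio of 0.36 against -0.03 over all tested genes. The alpha-arrestin gene Arrdc4, whose protein links NEDD4 family ligases to cargo, had 149 reads there, 66 in Itch KO and 97 in WWP2 KO, against 37 in wild type. It was 3.76-fold higher than wild type (2.61 to 5.54) in the DKO-labelled library, and 2.65-fold higher (1.80 to 3.98) in WWP2 KO, where it was the only 1 of 15 called and 0.282% of all tested genes were called higher; the list median there was 0.17. N4bp1, whose protein binds and restrains Itch, was 3.02-fold higher in the DKO-labelled library (2.85 to 3.19) on 5100 and 1578 reads. The lowest was Ldlrad3, a membrane protein that binds family ligases, with 17 and 64 reads. In Itch KO 0 of 15 were called, with a median of 0.03, where 4.89% of all tested genes were called higher and 0.846% lower.

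Among 17 tested genes for reported substrates, 1 was called in Itch KO and 1 in the DKO-labelled library, in each case Jun, higher. Of all tested genes, 4.89% and 12.3% were called higher there, so the list held no clear excess of calls. Jun was 2.02-fold higher (1.83 to 2.24) in Itch KO and 3.60-fold higher (3.28 to 3.95) in the DKO-labelled library. It had 2212 reads in the DKO-labelled library, 1161 in Itch KO and 719 in WWP2 KO, against 574 in wild type. The counts are of RNA, so they say nothing of the turnover of the protein. No other gene of that list was called against wild type, and 0 were in WWP2 KO. Junb RNA did not reach the 2-fold rule but differed, at 852 CPM in the DKO-labelled library, 810 in Itch KO and 467 in WWP2 KO, against 509 in wild type. Its fold in Itch KO was 1.59 (1.55 to 1.64). The list medians were 0.13 in the DKO-labelled library, 0.06 in Itch KO and 0.05 in WWP2 KO. Of 15 tested TGF-beta and SMAD genes, the pathway in which the Smurf ligases act, 3 were called in the DKO-labelled library, all higher, where 12.3% of the tested genes were, and 0 in Itch KO or WWP2 KO. The list's median log2 ratio in the DKO-labelled library was nonetheless -0.19, against -0.03 over all tested genes, and it was 0.10 in Itch KO and 0.12 in WWP2 KO. The leading ones were the type II BMP receptor gene Bmpr2, 5.46-fold higher (4.46 to 6.74), and the TGF-beta co-receptor gene Tgfbr3, 4.49-fold higher (3.60 to 5.65). None of the 7 tested genes for ubiquitin-conjugating enzymes and deubiquitinases was called against wild type in any of these libraries. Of all tested genes, 12.3% were called higher and 6.34% lower in the DKO-labelled library. The shares were 4.89% and 0.846% in Itch KO, and 0.282% and 0.161% in WWP2 KO. With shares so small, 0 calls in the single knockouts say little about this list or the TGF-beta list.

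The genes nearest in pattern to the called members were sought over the 3 log2 ratios to wild type. For Wwp2 no tested gene came close: the nearest, Phlda3, lay at a Euclidean distance of 6.08 on the log2 scale, since its own WWP2 KO ratio was -1.83 against -7.83. For Nedd4 the nearest were Susd2 (distance 0.06), AB124611 (0.17) and Calhm2 (0.18). Susd2 had 86 reads in the DKO-labelled library, 39 in Itch KO and 19 in WWP2 KO, against 25 in wild type, so its likeness to Nedd4 rests on counts as low as those of Nedd4 itself.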

How the data were processed

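The authors deposited raw read counts per gene symbol in 1 table of 21937 genes by 4 libraries. The submitters' processing notes name Bowtie 1.0.0, TopHat 1.4.1, HTSeq 0.7.1 and build mm9. The annotation and the strand setting are not given in the sources used, so an overlapping or antisense gene could share reads. Depth was 17130747 to 17990392 reads per library.

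Counts were scaled by TMM with edgeR 4.0.16 (R 4.3.3); DESeq2 1.42.0 size factors were an alternative. Log2 ratios used a prior count of 2; folds used none. Intervals are exact conditional binomial (folds), exact Poisson (levels) or Poisson-based normal approximations (summed levels), all at 95%, and cover no more than counting error, since PCR copies were not marked by molecular identifiers. Exon lengths came from GENCODE M21 (GRCm38), another build than that of the counts, and promoter windows from RefSeq (GRCm38.p6). The text names all 9 members, up to 2 highest and 2 lowest called genes per list, and the 3 nearest patterns to each called member. The cell markers with values, the 2 Hecw genes and the Junb values were added after their values were seen. The members and lists were chosen with earlier results of these data known. Other computation used scipy 1.17.1, pandas 2.3.3 and numpy 2.4.6 in Python 3.11.15, with plots from matplotlib 3.10.9.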

Additional observations from a re-analysis of the deposited data

Results flagged for a closer look

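Itch was the member whose count moved in opposite directions under the Itch knockout label: 0.919 times wild type in Itch KO, and 1.10 times WWP2 KO in the DKO-labelled library, with both counting intervals excluding 1. The difference between these folds was not tested, and neither comes near 2-fold. Such intervals were common: 54.2% of tested genes excluded 1 in Itch KO against wild type, and 9 of 9 members in the other comparison. The libraries of that other comparison also differed in Wwp2 reads (1135 in the DKO-labelled library and 4 in WWP2 KO).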

How the results depend on the processing

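No paired analysis was possible because each genotype had 1 library. Members called were the same under DESeq2 size factors, total counts, no low filter and a prior count of 0.5. Under a minimum of 10 CPM Nedd4 left the genes tested, so 0 members were called higher in the DKO-labelled library against wild type, 0 against Itch KO and 1 against WWP2 KO. Under a 1.5-fold rule 1 member, Nedd4l, was called lower in that library against Itch KO and 1, again Nedd4l, against WWP2 KO, where Ndfip1 was also called higher. Smurf1 changed sign with total counts between the DKO-labelled library and Itch KO (-0.07 and 0.01 on the log2 scale). Without the DKO-labelled library, an alternative chosen after seeing the data, 381 and 84 genes were called higher and lower in Itch KO and 23 and 13 in WWP2 KO.

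Counts of all genes called higher or lower moved with the filter and the fold. Without a low filter, 183 were lower in Itch KO, 117 higher and 56 lower in WWP2 KO, and 1924 higher in the DKO-labelled library against wild type, 1421 against Itch KO and 1780 against WWP2 KO. At 10 CPM, 233 were higher and 45 lower in Itch KO, 6 and 7 in WWP2 KO, and 666, 452 and 625 higher in the DKO-labelled library against wild type, Itch KO and WWP2 KO, with 392 lower against the last. At 1.5-fold, these were 872 and 436 in Itch KO, 118 and 75 in WWP2 KO, and in the DKO-labelled library 2033 and 1740 against wild type, 1933 and 1435 against Itch KO, and 1950 and 1665 against WWP2 KO.

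With total counts the summed level of the 7 ligases in the DKO-labelled library was 0.946 of wild type, and that of the 6 other than Wwp2 0.978. With the longest transcript as length, the 7 ligases in WWP2 KO stood at 0.744 of wild type. The difference of the 6 others in WWP2 KO was 2.61% to 15.2% of the Wwp2 level lost under the alternative lengths and scalings.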
